A study of Mus musculus with 2 samples.

Results

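The genes of the MHC class II pathway that encode its structural and loading components were followed across the cells of mouse lung. The 10 members were taken by symbol from the gene rows of the 6 deposited matrices: H2-Aa, H2-Ab1, H2-Eb1, H2-Eb2, H2-DMa, H2-DMb1, H2-DMb2, H2-Oa, H2-Ob and Cd74, of 31053 gene rows in all. Female C57BL/6J mice went through 1 of 3 procedures: a tolerization protocol, in which ovalbumin (OVA) was inhaled before the asthma protocol (tolerance); OVA sensitization with alum followed by intranasal OVA (asthma); or alum with no OVA and saline into the nose (control). Lungs were pooled within a treatment, and dendritic cells (DCs) and macrophages were sorted from the pool, hashtagged, mixed and loaded on 2 lanes of a 10x Genomics 3′ assay, so there is 1 pool of mice per treatment and the lanes are technical repeats. The DC gate asked for high MHC class II protein and CD11c among cells negative for MerTK, CD64 and Ly6C, so class II protein, though no class II transcript, helped to choose the DCs.

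MHC class II molecules present peptides from endocytosed antigen to CD4+ T cells. An alpha and a beta chain assemble on the invariant chain (Cd74), whose remnant CLIP is exchanged for antigenic peptide by H2-DM, while H2-O restrains H2-DM. Transcription of the group depends on the co-activator Ciita and on a promoter module of X and Y boxes, bound by RFX and NF-Y, and it is strong in DCs and B cells and inducible in macrophages. The C57BL/6 haplotype makes no I-E alpha chain, so H2-Eb1 is transcribed there without surface I-E protein.

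After filters, 9876 of 10901 cells remained, with 7670938 to 10926623 UMIs (unique molecules) per library of 1 pool in 1 lane, and no barcode was shared between libraries. Cells were placed in classes by lists of marker genes that hold none of the members, a cell needing 3 to 6 distinct markers of exactly 1 class. This gave 4578 alveolar macrophages (AM), 1013 interstitial macrophages (IM), 795 cDC2, 281 Xcr1 cDC1, 276 mature DCs (Ccr7 and Fscn1 type), 536 B cells, 289 nonclassical monocytes and 162 T cells, with 1204 cells in no class and 425 in several. Classical monocytes numbered 33, with 2 in the asthma pool, and were not tested. The sort aimed at DCs and macrophages, so the lymphocytes and monocytes here are those that came through it. Control pools held few of some classes: 56 IM, 118 cDC2 and 26 mature DCs. Levels are UMIs of a gene scaled to 1000000 UMIs of the class in a pool (CPM), and class comparisons used the 3 pools as replicates. The p-values therefore rest on 3 pools that differ in treatment, and fewer positive cells in a class cannot be told apart from less RNA per cell except where single cells were counted.

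The members other than Cd74 lie in 1 cluster on mouse chromosome 17 (GRCm38, GENCODE vM21), from H2-Oa at chr17:34092340-34095234 to H2-Eb2 at chr17:34325665-34341412, all protein-coding genes. RefSeq promoter windows (GRCm38.p6, 250 bases before to 50 after the start) matched 8 of 10 members, with 9 windows since H2-DMa has 2. Most of these windows carry the Y box core ATTGG and, 25 to 40 bases before it on the gene's strand, the letters GNAAC of the X box core, both chosen with the sequences in view. Capitals mark these matches, and the stretches run 5′ to 3′ on the gene's strand. The H2-DMb1 and H2-DMb2 stretches stop short of their ATTGG.
H2-Aa (chr17:34287867-34287916, minus strand): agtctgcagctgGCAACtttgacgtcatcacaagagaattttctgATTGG
H2-Eb1 (chr17:34305763-34305812, plus strand): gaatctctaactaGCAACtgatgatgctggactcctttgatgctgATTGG
H2-Eb2 (chr17:34325530-34325579, plus strand): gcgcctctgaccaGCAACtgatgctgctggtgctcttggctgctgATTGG
H2-Oa (chr17:34092291-34092340, plus strand): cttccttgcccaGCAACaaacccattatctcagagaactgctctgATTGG
H2-Ob (chr17:34238803-34238852, plus strand): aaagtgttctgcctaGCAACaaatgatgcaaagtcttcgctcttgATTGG
H2-DMb1 (chr17:34153085-34153114, plus strand): gaggtttacctaGTAACtgatgatgctagg
H2-DMb2 (chr17:34145114-34145143, plus strand): gaggtttacctattaaccgatgatgctagg

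The pair of motifs at this spacing was found in 6 of the 9 windows of members and in 436 of 32851 promoter windows of all genes (1.33%), or 2.67% when both strands were searched. Because the motif letters were chosen with the member sequences in view, these shares are no test of enrichment. ATTGG alone was in 22.1% of all windows. H2-DMb1 held the pair and H2-DMb2 did not, although 28 of the 30 bases shown are the same, and H2-DMb2 had its ATTGG 90 bases before the start. Neither H2-DMa window held the pair. These matches are letters in a window and no measurement of binding.

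The classical chains and the invariant chain were highest in cDC2. H2-Aa, the I-A alpha chain, averaged 10541 ± 1867 CPM in cDC2, 9263 ± 1369 in Xcr1 cDC1, 7202 ± 364 in IM, 5700 ± 814 in mature DCs, 4117 ± 393 in B cells, 1752 ± 513 in nonclassical monocytes and 867 ± 345 in AM (SD over n = 3 pools here and for the other levels). H2-Ab1, the I-A beta chain, H2-Eb1, the I-E beta chain, and Cd74 followed nearly the same order: Cd74 averaged 30134 ± 6414 CPM in cDC2, 25362 ± 2353 in Xcr1 cDC1, 19237 ± 1504 in IM and 2961 ± 1202 in AM. T cells are treated separately. For H2-Aa the AM pools lay below every pool of these other classes, except that control nonclassical monocytes (1160 CPM) were below tolerance AM (1226 CPM). cDC2 and Xcr1 cDC1 pools overlapped and were not tested against each other.

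**Figure D1:**
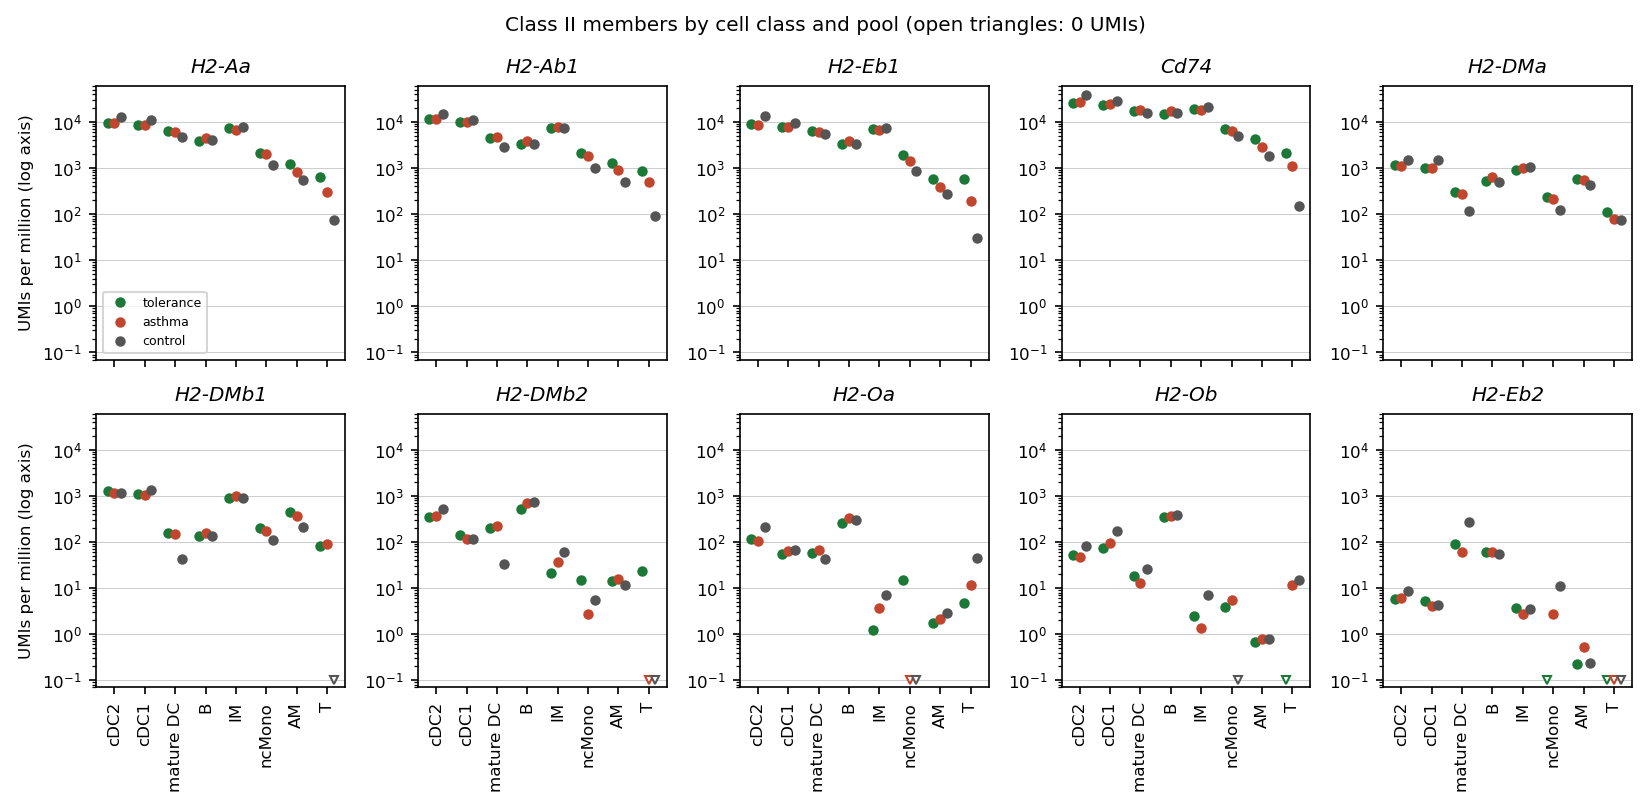
Level of each member (CPM, log axis) in 8 cell classes (cDC2, Xcr1 cDC1, mature DC, B cells, interstitial macrophages, nonclassical monocytes, alveolar macrophages, T cells), with 1 point per pool of mice. The classical chains and Cd74 fall in like order across classes, whereas H2-DMb2, H2-Oa and H2-Ob are far lower in both macrophage classes than in cDC2 and H2-Eb2 is highest in mature DCs and B cells.

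cDC2 held more of every member than AM: 10 of 10 were called higher by the quasi-likelihood test of edgeR, adjusted after Benjamini and Hochberg, where 27% of the 7993 genes tested were called higher and 27.8% lower. The median log2 difference over the members was 4.15, beside -0.025 over all genes. H2-DMa and H2-DMb1 differed least, whereas H2-DMb2 differed by log2 4.98 ± 0.30. H2-DMa, the H2-DM alpha chain, was at 1156, 1079 and 1504 CPM in tolerance, asthma and control cDC2, against 583, 545 and 432 CPM in AM of the same pools, with a log2 fold of 1.34 ± 0.21 (SE, edgeR adjusted p = 1.03e-06). H2-Ob, the H2-O beta chain, differed most, with 52.3, 46.3 and 80.5 CPM in cDC2 against 0.661, 0.785 and 0.787 CPM in AM, a log2 fold of 6.29 ± 0.30 (edgeR adjusted p = 7.79e-19). For both genes every cDC2 pool lay above every AM pool.

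IM held more than AM of 9 of 10 members by the same edgeR test, where 19% of genes were called higher and 18% lower. Median log2 differences were 2.33 over the members and 0.0020 over all genes. H2-Eb1 was at 6966, 6549 and 7401 CPM in tolerance, asthma and control IM, against 573, 385 and 267 CPM in AM, with a log2 fold of 4.18 ± 0.34 (edgeR adjusted p = 5.89e-13). H2-Oa, the H2-O alpha chain, was not called at 5, 8 and 2 UMIs in IM against 8, 16 and 36 UMIs in AM (edgeR adjusted p = 0.695). H2-Ob was called higher at log2 1.87 ± 0.56, on 15 UMIs in IM and 19 in AM.

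cDC2 held more H2-O and H2-DMb2 than IM, while most of the other members did not pass the test. Of the 10 members, 4 were called higher in cDC2 and 0 lower, where 13.3% of genes were called higher and 16.9% lower. H2-Oa was at 114, 107 and 214 CPM in tolerance, asthma and control cDC2, against 1.25, 3.62 and 7.07 CPM in IM, a log2 fold of 5.67 ± 0.35 (edgeR adjusted p = 8.76e-15). H2-Ob differed by log2 4.42 ± 0.34 and H2-DMb2, an H2-DM beta chain, by 3.71 ± 0.31. H2-DMb2 stood at 354, 362 and 519 CPM in cDC2, against 21.1, 37.1 and 60.1 CPM in IM. H2-Ab1 was the other called member, at log2 0.78 ± 0.29 (edgeR adjusted p = 0.0408). For the remaining 6, log2 folds ran from 0.37 for H2-DMa to 0.86 for H2-Eb2, all above 0. Their call depended on the fit: with the 2 classes alone 9 members were called higher, without the control pool, which had 56 IM, 8 were, and with no filter or without lane 2 there were 7. Without lane 1, the tolerance pool or the asthma pool 3 were called, H2-Ab1 being lost there and also with DESeq2, no replicate block, a stricter gate, no removal of doublets or a floor of 1200 genes per cell.

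**Figure D2:**
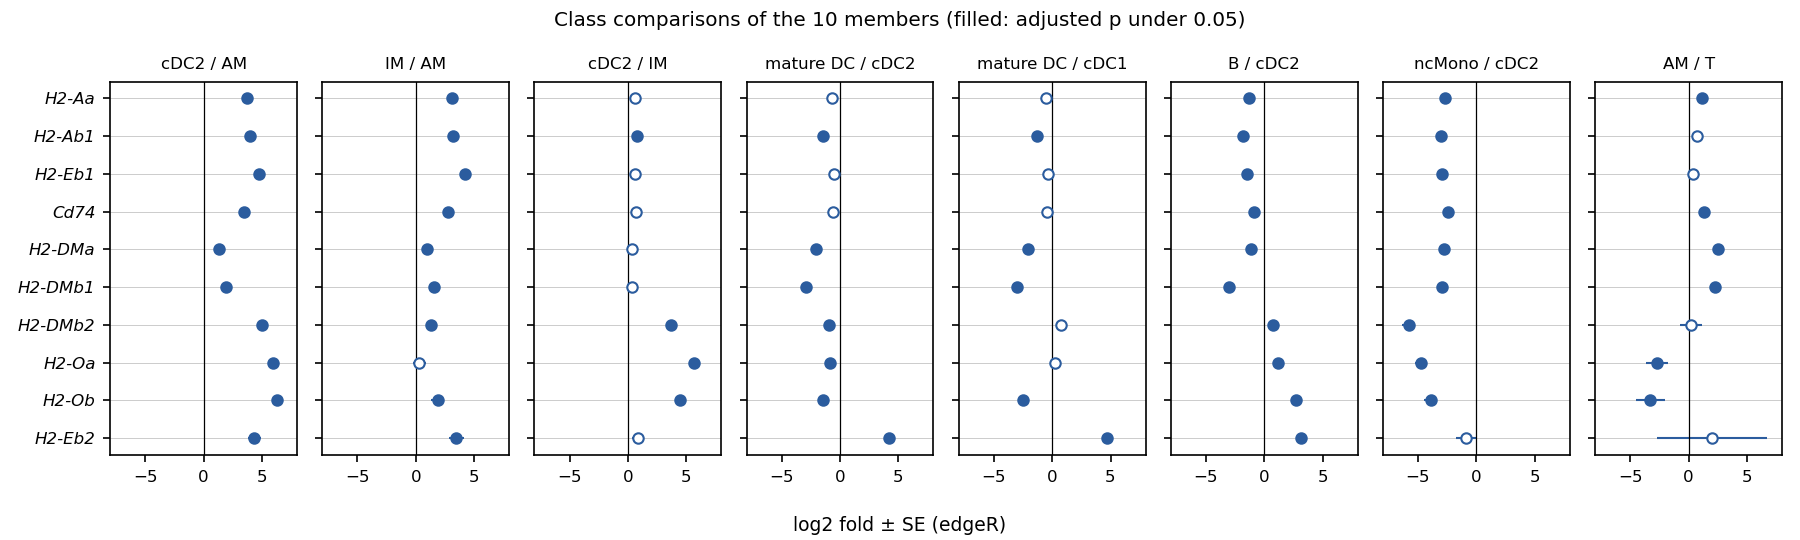
Log2 fold of the 10 members in the 8 class comparisons, the first-named class over the second, with standard errors from edgeR. Filled points passed an adjusted p of 0.05; H2-DMb2, H2-Oa and H2-Ob separate cDC2 from IM, and H2-Eb2 is the member called higher in mature DCs.

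Mature DCs, the migratory state that antigen-bearing DCs take on, held less of the loading genes than cDC2 and more H2-Eb2. Of the 10 members, 6 were lower and 1 higher in mature DCs, where 22.2% of genes were called lower and 21.8% higher. H2-DMb1, the other H2-DM beta chain, was at 156, 149 and 42.4 CPM in tolerance, asthma and control mature DCs, against 1253, 1164 and 1148 CPM in cDC2, a log2 fold of -2.95 ± 0.27 (edgeR adjusted p = 4.17e-11). H2-DMa followed at -2.05 ± 0.23, from 115, 298 and 14 UMIs in mature DCs. H2-Ob (-1.48 ± 0.34), H2-Ab1 (-1.45 ± 0.30), H2-DMb2 (-0.91 ± 0.28) and H2-Oa (-0.84 ± 0.27) were lower by smaller amounts. H2-Aa (-0.67 ± 0.29, edgeR adjusted p = 0.0558), Cd74 (-0.62 ± 0.35, edgeR adjusted p = 0.153) and H2-Eb1 (-0.55 ± 0.30, edgeR adjusted p = 0.142) did not pass. Scaling by total UMIs alone shifts the folds of this comparison by -0.25 on the log2 scale. It then calls these 3 lower as well, and moves the share of higher among all called genes to 34.1%, against 49.5% with the TMM scaling used here.

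Against Xcr1 cDC1 mature DCs had 4 members lower and 1 higher, where 19.3% of genes were lower and 20.7% higher. H2-DMb1 (-3.01 ± 0.28), H2-Ob (-2.46 ± 0.33), H2-DMa (-2.04 ± 0.24) and H2-Ab1 (-1.26 ± 0.30) were lower. H2-DMb2 was not called at log2 0.73 ± 0.31 (edgeR adjusted p = 0.0537), with 198, 226 and 33.9 CPM in mature DCs against 139, 116 and 118 CPM in Xcr1 cDC1, so that these pools overlap. H2-Oa was not called either, at log2 0.23 ± 0.30. Both comparisons share the mature DC libraries, and the difference between them was not tested. With no filter on low counts 8 of 10 members were called here (2 higher, 6 lower). With a stricter gate 8 of the 9 members in the fit were called (1 higher, 7 lower). That gate left too few control mature DCs for a treatment fold. With total UMIs the share of higher genes was 40.5%, against 51.8%.

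H2-Eb2, a little-studied beta chain gene beside H2-Eb1, was the member whose own mean level over pools was highest in mature DCs. It averaged 141 ± 114 CPM there and 58.9 ± 3.59 CPM in B cells. In the asthma pool these classes were close, at 61.6 and 59.8 CPM, and they were not tested against each other. In mature DCs its level was 82.7 and 98.5 CPM in lanes 1 and 2 of the tolerance pool, 53.4 and 69.9 CPM in asthma, and 309 and 242 CPM in control, on 132 UMIs in all. In cDC2 it was 5.66, 6.19 and 8.62 CPM and in Xcr1 cDC1 5.19, 4.06 and 4.30 CPM in tolerance, asthma and control. No mature DC library came near a cDC pool. The log2 folds of mature DCs were 4.20 ± 0.35 over cDC2 (edgeR adjusted p = 1.19e-11) and 4.68 ± 0.44 over Xcr1 cDC1 (edgeR adjusted p = 2.63e-10). Of single mature DCs, 24.3% had an H2-Eb2 UMI (exact 95% interval 19.3 to 29.8%), against 4.15% of cDC2 (2.87 to 5.78%). By pool the mature DC share was 27.4% in tolerance, 18.6% in asthma and 57.7% in control. The interval over all pools does not cover that spread. Thinned to 1500 UMIs per cell the shares were 11.8% and 1.13%. T cells, which in mice lack class II transcription, had 0 of 162 cells with an H2-Eb2 UMI (exact upper bound 2.25%). Median depths were 5427.5 UMIs in mature DCs, 7357 in cDC2 and 2274 in T cells. Thinning left out 4 mature DCs, 2 cDC2 and 17 T cells.

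B cells held H2-Eb2 too, and they were the class richest in H2-O. Against cDC2, 4 members were higher and 6 lower in B cells, where 20.8% of genes were called higher and 24.6% lower. H2-Eb2 was at 61.9, 59.8 and 54.9 CPM in tolerance, asthma and control B cells (log2 fold 3.18 ± 0.37, edgeR adjusted p = 2.03e-08). H2-Ob was at 356, 360 and 381 CPM in B cells against 52.3, 46.3 and 80.5 CPM in cDC2 (log2 2.73 ± 0.20), and H2-Oa at 253, 326 and 304 CPM against 114, 107 and 214 CPM (log2 1.16 ± 0.21). H2-DMb2 was higher by 0.70 ± 0.25 (edgeR adjusted p = 0.0222), at 529, 709 and 725 CPM in B cells. H2-DMb1 was lower by log2 -3.03 ± 0.27, at 132, 160 and 135 CPM. H2-DMa was lower by log2 -1.16 ± 0.22 (edgeR adjusted p = 3.35e-05). The classical chains and Cd74 were lower in B cells as well, with log2 folds from -0.91 for Cd74 to -1.84 for H2-Ab1.

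Among the classes with a share given here, that of H2-DMb2 in the H2-DM beta chain UMIs was highest in B cells and lowest in macrophages. H2-DMb2 gave 81.8% of the H2-DMb1 and H2-DMb2 UMIs in B cells (exact 95% interval 79.3 to 84.1%) and 58.9% in mature DCs. It gave 24.0% in cDC2, 10.0% in Xcr1 cDC1, 4.26% in AM and 2.92% in IM. Macrophages were not alone in this: nonclassical monocytes averaged 7.88 CPM of H2-DMb2 beside 161 CPM of H2-DMb1. Endothelial cells had 0 beside 56.1 CPM. The 3 B cell pools spanned 80.1 to 84.3% and the 3 cDC2 pools 22.0 to 31.1%. H2-O gave 32.6% of the H2-O and H2-DM UMIs in B cells, 11.2% in mature DCs, 6.54% in Xcr1 cDC1, 5.98% in cDC2, 0.391% in AM and 0.241% in IM. A UMI stands for 1 captured 3′ end and is not scaled by length, and how well each gene is captured is unknown, so these shares compare classes and not the amounts of the genes. Of the 56-base windows in the last 500 bases of H2-DMb1 transcripts, 19.3% also occur in H2-DMb2, and 11.8% of those of H2-DMb2 occur in other genes. These are shares of windows and not of UMIs, so the counts of this pair are uncertain by an amount that was not measured. For H2-Eb1 and H2-Eb2 no such window was shared with another gene.

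**Figure D3:**
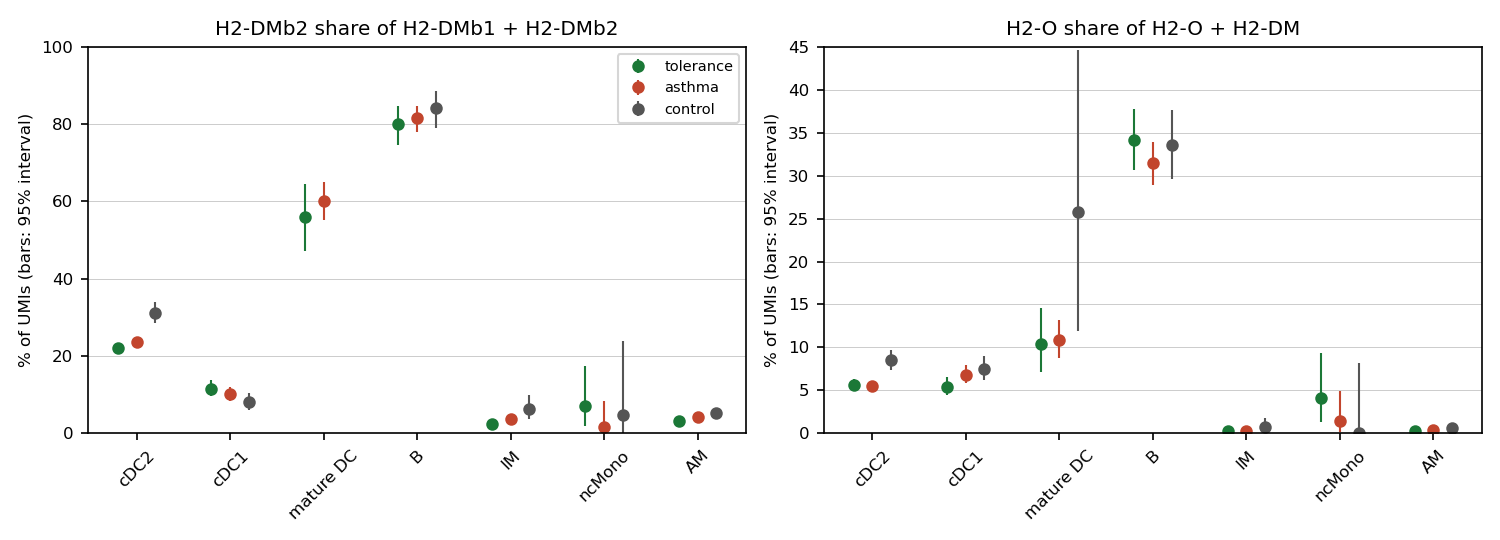
Share of H2-DMb2 among H2-DMb1 and H2-DMb2 UMIs (left) and of H2-O among H2-O and H2-DM UMIs (right), in percent, per class and pool, with exact 95% binomial intervals for counting error only. B cells lie highest in both plots and AM and IM near 0; groups with under 20 UMIs are left out.

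Nonclassical monocytes, patrolling cells of the vessels, held less of 9 of 10 members than cDC2 and more of 0, where 17.3% of genes were called lower and 17.7% higher. H2-Aa was at 2062, 2034 and 1160 CPM in tolerance, asthma and control monocytes, against 9621, 9312 and 12689 CPM in cDC2 (log2 fold -2.67 ± 0.31, edgeR adjusted p = 4.61e-09). H2-DMb2 had 6 UMIs in all 289 monocytes (log2 -5.81 ± 0.53). H2-Eb2, with 3 UMIs, was not called. Thinned to 1500 UMIs per cell, which left out 33, the median monocyte had 3 class II UMIs and the cell at the 90th percentile 40.

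AM, set against T cells as cells that should lack the transcripts, were higher in 4 members and lower in 2, where 24.7% of genes were called higher and 18.8% lower. H2-DMa was at 583, 545 and 432 CPM in tolerance, asthma and control AM, against 110, 77.3 and 74.3 CPM in T cells (log2 2.49 ± 0.31, edgeR adjusted p = 1.41e-08). H2-DMb1 (2.26 ± 0.36), Cd74 (1.30 ± 0.37) and H2-Aa (1.19 ± 0.33) were higher too. H2-Oa and H2-Ob were called lower in AM, on only 6 and 3 UMIs in T cells, and the H2-Ob fold of -3.27 ± 1.22 turned to 2.04 with a stricter gate and 2.96 with a floor of 1200 genes per cell, neither of them called. The T cell level was carried by few cells: in the tolerance pool 5 of 71 T cells held 872 of 927 class II UMIs, and in asthma 5 of 60 held 347 of 382. The median T cell had 1 class II UMI in each pool. Whether these few cells are doublets was not tested, so the summed T cell level is an uncertain background. With a floor of 1200 genes per cell 1 member was called, and without the asthma pool 2 were.

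Between treatments there is 1 pool each, so values are given with no test, and intervals cover counting error only. AM held more class II transcript in the tolerance and asthma pools. The summed level of the 10 members in AM was 8347 and 8273 CPM in lanes 1 and 2 of the tolerance pool, 5847 and 5938 CPM in asthma, and 3821 and 3748 CPM in control. The lanes of a pool lay far closer to each other than to any other pool. The log2 fold was 1.14 for tolerance over control (interval 1.12 to 1.15) and 0.64 for asthma over control (0.62 to 0.66). With the T cell level of the lane subtracted the folds were 2.70 and 1.80. That level was 3866 and 2171 CPM in lanes 1 and 2, above the control AM sum in lane 1. These folds therefore rest on a control level that was mostly removed, by a T cell level that few cells carried. With the median T cell level subtracted, an alternative chosen after seeing the data, the folds were 1.2 and 0.68.

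In AM, 5 of the 7 members with at least 100 UMIs were past 2-fold for tolerance over control, where 2.8% of the 8814 genes counted were. These were H2-Ab1 (2.5-fold), Cd74 (2.32-fold), H2-Aa (2.28-fold), H2-Eb1 (2.15-fold) and H2-DMb1 (2.07-fold). H2-DMa (1.35-fold) and H2-DMb2 (1.18-fold) moved less. For asthma over control 0 of 7 were past 2-fold (2.45% of genes), the largest being H2-Ab1 at 1.77-fold and H2-DMb1 at 1.68-fold. Ciita had 28.4, 25.6 and 14.6 CPM in tolerance, asthma and control AM.

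The difference was also seen in the share of single AM with class II transcripts. Of AM thinned to 1500 UMIs, 51.2% of tolerance cells had at least 10 class II UMIs (exact 95% interval 47.5 to 54.9%), against 37.0% of asthma cells (34.5 to 39.5%) and 21.4% of control cells (19.8 to 23.1%). The medians were 10, 6 and 4 UMIs, and 3, 15 and 9 cells were too shallow to thin. In T cells thinned alike 3.17% of tolerance, 3.77% of asthma and 0% of control cells had at least 10 class II UMIs, and the median was 0 in each pool. At least 1 class II UMI was found in 39.7, 39.6 and 44.8% of these T cells. For thinned AM that share was 96.0, 91.7 and 87.2%. Before thinning 99.7, 98.9 and 98.8% of tolerance, asthma and control AM had a class II UMI, at median depths of 5850, 4744 and 5012 UMIs, against 57.7, 53.3 and 51.6% of T cells.

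**Figure D4:**
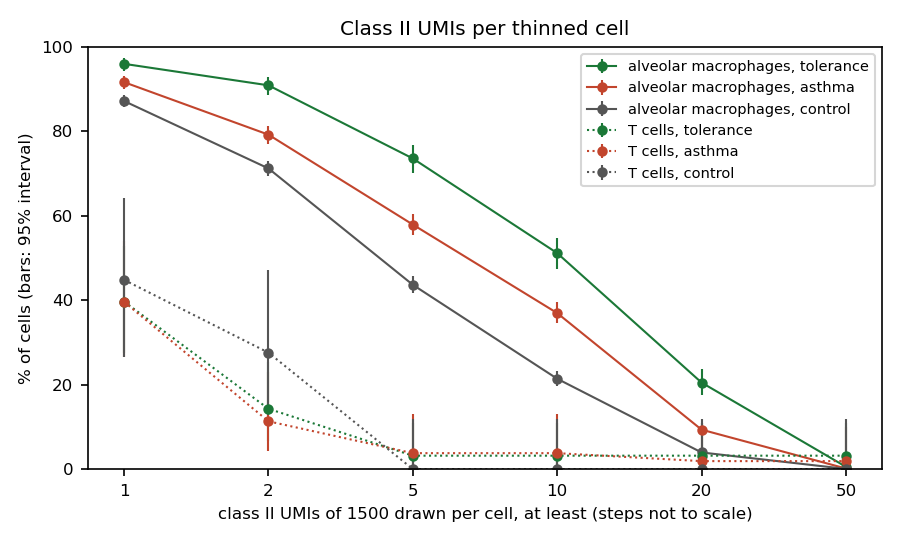
Percent of cells with at least the given number of class II UMIs after each cell was thinned to 1500 UMIs, for AM (solid) and T cells (dotted) of each pool, with exact 95% binomial intervals for counting error. Tolerance AM lie above asthma AM, which lie above control AM, up to at least 20 UMIs (20.5, 9.34 and 3.94%).

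Other marker lists also differed between the AM of the pools. The 10 AM markers summed to 59188, 50174 and 20056 CPM in tolerance, asthma and control AM, none at 0. The 8 IM markers summed to 102, 85.7 and 40.8 CPM (1, 0 and 0 markers at 0), the 8 cDC2 markers to 84.2, 68.0 and 55.3 CPM (0, 1 and 0 at 0) and the 8 Xcr1 cDC1 markers to 1017, 860 and 619 CPM (2, 0 and 0 at 0). Their part in the class II difference was not tested.

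cDC2 went the other way. Their summed class II level was 57614 and 59863 CPM in lanes 1 and 2 of the tolerance pool, 59414 and 58425 CPM in asthma, and 82242 and 80709 CPM in control, so the control lanes lay above the other 4 libraries. The log2 folds over control were -0.47 for tolerance (interval -0.48 to -0.45) and -0.47 for asthma (-0.48 to -0.45). For asthma over control 1 of 9 members was past 2-fold lower, H2-Oa, at 107 CPM in asthma and 214 CPM in control (3.25% of genes lower). For tolerance 0 of 9 were (2.23% of genes). H2-DMb1 was the member that was not lower in cDC2, at 1253, 1164 and 1148 CPM in tolerance, asthma and control. In the cDC2 the 8 mature DC markers summed to 382, 431 and 74.7 CPM in tolerance, asthma and control (1, 1 and 4 at 0), the 8 IM markers to 78.7, 83.4 and 223 CPM (0, 0 and 1 at 0) and the 8 cDC2 markers to 3527, 3538 and 4453 CPM (1, 0 and 1 at 0). Cst3, which encodes cystatin C, was at 5867, 5922 and 16272 CPM in the cDC2 of tolerance, asthma and control. Whether the gated class holds the same subsets in each pool was not tested, nor was the part of these genes.

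**Figure D5:**
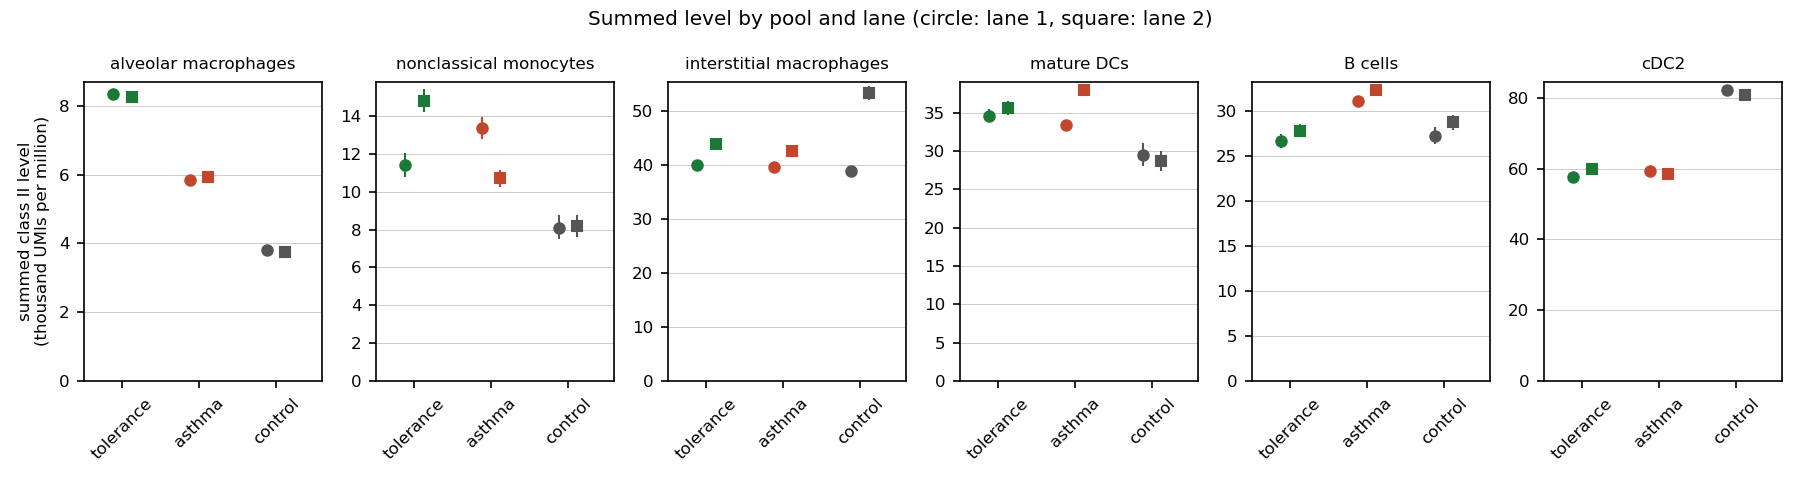
Summed level of the 10 members (1000 CPM, axes from 0) in 6 classes by pool, with circles for lane 1 and squares for lane 2 and exact 95% Poisson intervals. In AM and nonclassical monocytes the tolerance and asthma lanes lie above the control lanes, in cDC2 below them, and in IM the control lanes are far apart.

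In nonclassical monocytes the summed level was 11417 and 14814 CPM in the tolerance lanes, 13364 and 10711 CPM in asthma, and 8099 and 8192 CPM in control. For tolerance over control 2 of 4 members with at least 100 UMIs were past 2-fold, H2-Eb1 (2.20-fold) and H2-Ab1 (2.07-fold), beside 0.566% of genes, and for asthma 0 of 5 (0.338%). Of thinned monocytes, 20.9% in tolerance, 27.7% in asthma and 22.4% in control had at least 10 class II UMIs. The shares were 17.4, 22.3 and 22.4% at 20 UMIs or more. At 50 or more they were 8.14, 8.04 and 1.72%, the last being 1 of 58 cells. In mature DCs the H2-DM genes had more CPM in asthma than in control, on few control UMIs: H2-DMb2 with 242 UMIs in asthma and 4 in control, H2-DMb1 with 160 and 5, and H2-DMa with 298 and 14, which made 3 of 7 members past 2-fold (7.14% of genes). For tolerance 1 of 5 was, H2-DMa at 2.56-fold (4.2% of genes). H2-DMb1 and H2-DMb2 also had more CPM in tolerance than in control, but were not counted, being under the floor of 100 UMIs. H2-Eb2, under the floor of 100 UMIs, went the other way, at 61.6 CPM in asthma and 271 CPM in control mature DCs. The control side rests on 26 cells. In IM the summed level was 42108, 41140 and 45318 CPM in tolerance, asthma and control, with H2-DMb2 the 1 of 7 members past 2-fold lower in tolerance (2.77% of genes), on 17 UMIs in control. B cell sums were 27268, 31729 and 28140 CPM in tolerance, asthma and control.

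Of 17 further genes of the pathway, 16 were matched by symbol and 14 passed the filter on low counts. Ciita was at 341 ± 28.0 CPM in cDC2, 185 ± 26.3 in Xcr1 cDC1, 180 ± 10.3 in IM, 134 ± 19.8 in mature DCs, 127 ± 23.1 in B cells, 56.1 ± 15.1 in nonclassical monocytes and 22.9 ± 7.29 in AM. It was higher in cDC2 than in AM by log2 4.0 (edgeR adjusted p = 2.72e-19). In that comparison 5 of the 14 were higher and 5 lower, beside 27% and 27.8% of all genes. The lower ones were the lysosomal proteases Ctss, Ctsl and Lgmn, which trim the invariant chain and antigen, the intramembrane protease Sppl2a and the ubiquitin ligase March8. In IM over AM 5 were higher and 3 lower, beside 19% and 18% of all genes. In cDC2 over IM there were 4 and 4, beside 13.3% and 16.9%, and in B cells over cDC2 1 and 5, beside 20.8% and 24.6%. In nonclassical monocytes over cDC2 there were 4 and 1, beside 17.7% and 17.3%, and in AM over T cells 7 and 2, beside 24.7% and 18.8%. With 14 genes, several of these counts are near the share over all genes.

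In mature DCs over cDC2 7 of the 14 were higher and 4 lower, beside 21.8% and 22.2% of all genes, and over Xcr1 cDC1 5 and 1, beside 20.7% and 19.3%. March1, the ligase that marks class II molecules for degradation, had 0 UMIs of 1568220 in mature DCs, against 465 of 6211020 in cDC2. It was at least 39.1-fold lower in mature DCs than in cDC2 and at least 57.7-fold lower than in Xcr1 cDC1, counting 3 UMIs over the group as the floor. Cd83, which opposes March1, was at 1074, 1146 and 1881 CPM in tolerance, asthma and control mature DCs, against 439, 450 and 481 CPM in cDC2 (log2 1.77, edgeR adjusted p = 1.57e-08). Lgmn was higher by log2 2.04 and Ciita lower by -1.16.

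Over the 30 sums of 10 classes and 3 pools, the members most like H2-Aa by Pearson's r of log2(CPM + 1) were Cd74 (0.99), H2-Ab1 (0.99) and H2-Eb1 (0.99), and Ciita came next (0.90). H2-DMa (0.84), H2-DMb1 (0.81) and H2-DMb2 (0.81) followed, with H2-Ob (0.66), H2-Eb2 (0.66) and H2-Oa (0.64) last. Outside both lists the 5 most like it among 8312 genes ranked were Ly86 (0.88), Fgd2 (0.87), Pkib (0.86), Ppfibp2 (0.86) and Slamf7 (0.86). The sums share lanes and pools and differ in depth, and these values describe this set of classes only.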

How the data were processed

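The deposited matrices hold UMI counts per gene and cell, which the authors left unnormalized (submitters' processing notes name STAR, Cell Ranger 3.1.0, Seurat 3.1.5 and mm10). Kept barcodes had at least 500 genes, at most 20000 UMIs and at most 20% of UMIs from mitochondrial genes (10088 of 10901). The 2% with the highest scrublet scores per lane were then dropped (scanpy 1.11.5), since the automatic threshold marked under 0.5%. Cells were gated by marker lists, with the number of markers needed set after marker counts per cell were seen. UMIs were summed per class and pool for 10 classes with at least 10 cells in each pool, and tested with edgeR 4.0.16 (TMM, filterByExpr, quasi-likelihood test, pool as a block, Benjamini-Hochberg over 7993 genes, adjusted p under 0.05), all 30 libraries in 1 fit. The pools are paired across classes because each pool's classes come from the same mice. Between treatments, a gene was past the fold where it had at least 100 UMIs over the 2 pools and differed at least 2-fold with the same direction in both lanes (1 UMI added to each sum). Binomial intervals are exact (Clopper-Pearson, 95%) and cover counting error only. The named genes are all 10 members, the 17 pathway genes and the 5 genes most like H2-Aa with a mean of at least 10 CPM. Members and lists were chosen with earlier results of these data known. The procedure was tested on simulated data. Alternatives were DESeq2 1.42.0, other scalings, filters, gates, lanes and pools. Sequences are from RefSeq.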

Additional observations from a re-analysis of the deposited data

Results flagged for a closer look

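The summed class II level went in opposite directions in different classes, in both lanes, and none of these differences was tested, since each treatment has 1 pool. For asthma over control the log2 fold was 0.64 in AM, 0.54 in nonclassical monocytes, 0.30 in mature DCs and 0.17 in B cells, each set against -0.47 in cDC2, which leaves differences of 1.11, 1.01, 0.76 and 0.64. For tolerance over control it was 1.14 in AM, 0.72 in nonclassical monocytes and 0.27 in mature DCs. Set against -0.47 in cDC2, the differences were 1.60, 1.18 and 0.74, and set against -0.045 in B cells they were 1.18, 0.76 and 0.32. The B cell fold in tolerance is close to 0 and turned to 0.055 when cells under 1200 genes were left out, and the nonclassical monocyte folds were 1.40 in asthma and 1.91 in tolerance with a stricter gate. The share of thinned nonclassical monocytes with at least 10 class II UMIs was 20.9% in tolerance, 27.7% in asthma and 22.4% in control, with overlapping intervals.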

How the results depend on the processing

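Depth limits H2-Eb2, H2-Oa, H2-Ob and H2-DMb2, each with under 20 UMIs in at least 1 whole class, and control mature DCs and IM limit any statement on treatment. Of 893 folds of the 60 called members under alternatives, 846 kept their direction and call, 45 lost the call and 2 reversed: H2-Ob in AM over T cells, to 2.04 with a stricter gate and 2.96 with a floor of 1200 genes. Without the replicate block on pools, 56 members were called over the 8 comparisons, against 60. Uncalled members that changed sign in AM over T cells were H2-Ab1 (-0.43), H2-Eb1 (-0.78) and H2-DMb2 (-0.96) with the floor of 1200 genes and H2-Eb2 (-2.27) with DESeq2. Leaving out a pool or lane gave H2-DMb2 there -0.54 to 7.41, H2-Oa -0.25 to 0.90 in IM over AM and -0.078 to 0.49 in mature DCs over Xcr1 cDC1, and H2-Eb2 -1.96 to 0.29 in nonclassical monocytes over cDC2.

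The number of members called in cDC2 over IM was 7 with no filter and 9 with the 2 classes alone, and 3 to 8 leaving out a pool or lane. In mature DCs over Xcr1 cDC1 it was 8 with no filter and 8 with a stricter gate, where 9 members were in the fit. In AM over T cells it was 1 with a floor of 1200 genes and 2 to 8 leaving out a pool or lane.

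Of summed treatment folds (log2, over control), AM moved to 0.48 (asthma) and 1.09 (tolerance) with a stricter gate, to 1.11 (tolerance) with no removal of doublets, to 1.80 and 2.70 with the T cell level of the lane subtracted, and to 0.68 and 1.2 with the median T cell level subtracted, an alternative chosen after seeing the data because few T cells set the sum. cDC2 in asthma moved to -0.50 with totals without the members and to -0.49 with the T cell level subtracted. Nonclassical monocytes moved to 1.40 (asthma) and 1.91 (tolerance) with a stricter gate and to 1.01 (tolerance) with the T cell level subtracted. B cells moved to 0.024 (asthma) and -0.16 (tolerance) with a stricter gate and to 0.36 and 0.055 with the floor of 1200 genes, the last a reversal. IM in asthma reversed to 0.37 with a stricter gate. Leaving out a lane gave IM -0.33 to 0.029 in asthma and -0.28 to 0.044 in tolerance. The stricter gate left too few control cDC2 and mature DCs for a value. The causes were not tested.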

Other observations

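The balance of the I-A chains differed between classes. H2-Ab1 gave 42.6% of the H2-Ab1 and H2-Aa UMIs in mature DCs (exact 95% interval 41.9 to 43.4%) and 45.8% in B cells (44.8 to 46.8%), beside 54.5% in cDC2 (54.2 to 54.7%), 53.5% in Xcr1 cDC1, 51.3% in IM and 50.1% in AM. Per pool the share was 40.9, 43.6 and 37.9% in tolerance, asthma and control mature DCs, below the cDC2 pools at 54.4, 54.8 and 53.3%. These shares were not tested, and the intervals cover counting error only.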
